A study of Mus musculus with 2 samples.

Results

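T cells and natural killer (NK) cells were picked out of 2 single-cell libraries from mouse brain, 1 from brains carrying a melanoma metastasis and 1 from naive brains. A barcode was taken as a T or NK cell when it had at least 1000 unique molecular identifiers (UMIs, each standing for 1 captured transcript), 500 genes and at most 20% mitochondrial UMIs, and passed 3 further limits. Cd3e, Cd3d, Cd3g, Trac, Trbc2, Nkg7 and Ms4a4b together had to reach 4 UMIs and 0.15% of UMIs. Ms4a7, Pf4 and Lyz2 together had to stay under 5 UMIs, and Cd79a and Cd79b under 3 UMIs. The rule found 204 cells among 27740 barcodes that passed the depth and mitochondrial limits: 125 of 13745 in metastasis and 79 of 13995 in naive.

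Both groups were C57BL/6J mice aged 10 weeks. The metastasis brains carried B16/F10-BrM, a brain-seeking derivative of a mouse melanoma line, and the naive brains carried no tumour. Each library was made from a pool of 3 brains, depleted of myelin, enriched for astrocytes with beads against ACSA-2, and loaded at about 10000 cells on a droplet 3' assay. Lymphocytes were therefore not the cells that the beads were meant to hold, and their share of the library is not their share of the brain. With 1 pooled library per group no difference can be set against the spread between animals, so no test was made. Intervals are exact 95% intervals and cover counting error only. Those of ratios treat every UMI as independent, so they leave out the spread between cells and are too narrow where few cells hold the UMIs. Library totals were 89193669 and 69445557 UMIs, and 53 barcode sequences passed the limits in both libraries, 1 of which belonged to a T or NK cell of metastasis. Pmel, a pigment gene of the injected cells, had 174742 UMIs in the metastasis library and 4774 in naive. The submitters exchanged the titles of the records, and the groups here follow the titles now in use.

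T cells recognise peptides on MHC molecules through a clonal receptor that signals through the CD3 chains, and CD8 and CD4 mark the killer and helper lineages. NK cells lack that receptor and kill through germline-encoded receptors, sharing granzymes and perforin with killer T cells. Both respond to interferons, which act through receptor-bound kinases on genes with an interferon-stimulated response element (ISRE) near the start site.

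The 7 selecting genes had a median of 11 UMIs per cell in each library, with highest values of 69 in metastasis and 49 in naive. They are given as a description, since they chose the cells. Cd3e, a CD3 chain, had 153 UMIs in 73 cells of metastasis and 108 UMIs in 53 cells of naive. Nkg7, a granule protein of killer cells, had 302 UMIs in 69 cells and 186 UMIs in 42 cells. At the edge of the rule, 7 cells of metastasis and 4 of naive had exactly 4 UMIs of the selecting genes, while 1 and 0 barcodes stopped at 3 UMIs. A further 5 and 6 barcodes had enough UMIs but fell below 0.15%. The macrophage limit removed 0 barcodes in either library, and the B cell limit removed 0 and 1.

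The cells were shallow, with medians of 1619 UMIs and 964 genes in metastasis and 1576 UMIs and 886 genes in naive. Together they held 280158 and 157618 UMIs. They made up 0.909% (0.758 to 1.08%) of barcodes in metastasis and 0.564% (0.447 to 0.703%) in naive. The intervals do not overlap, but they did with a limit of 2000 UMIs (0.388%, 0.278 to 0.528%, and 0.220%, 0.140 to 0.331%) and without the cells with at least 2 C1q UMIs (0.706%, 0.573 to 0.860%, and 0.557%, 0.441 to 0.695%). They also overlapped without the cells holding myelin genes, with a minimum of 6 UMIs of the selecting genes, and with macrophage genes held under 2 UMIs. Bead capture and dissociation were not measured and cannot be told apart from a change in cell number.

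Some barcodes held RNA of other cells. In metastasis 16 of the 125 cells (12.8%) had at least 10 UMIs of the myelin genes Mag, Mog, Mobp, Ermn, Cldn11 and Opalin, against 2 of 79 (2.53%) in naive. These cells had a median of 4094 UMIs in metastasis, against 1477 in the others. At least 2 UMIs of the complement genes C1qa, C1qb and C1qc, which macrophages and microglia express, were found in 28 cells of metastasis and 1 of naive. Lyz2 had 57 UMIs in 41 cells of metastasis and 0 in naive. The list of B and plasma cell markers had 37 UMIs in 27 T and NK cells of metastasis and 35 UMIs in 22 of naive, most of them from Ighm (34 and 27 UMIs), with Ms4a1 and Pax5 at 0 in the T and NK cells of both libraries. Neutrophil markers had 6 UMIs in 5 cells of metastasis and 0 in naive. For part of the results below, values without the cells holding myelin genes are also given.

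By their receptors, 37 cells of metastasis were CD8 cells, 14 were CD4 cells, 11 were NK-type (at least 2 UMIs of NK genes and none of the T cell receptor, CD3 or coreceptor genes) and 2 were of a gamma delta type. The other 61 had T cell receptor or CD3 genes and fell in none of these classes; they are called receptor genes only, although 12 of them, and 8 of that class in naive, also had at least 2 UMIs of NK genes. Naive held 24 CD8 cells, 14 CD4 cells, 3 NK-type cells, 6 gamma delta-type cells and 32 with receptor genes only. CD8 cells made up 29.6% (21.8 to 38.4%) and 30.4% (20.5 to 41.8%), and CD4 cells 11.2% (6.26 to 18.1%) and 17.7% (10.0 to 27.9%). NK-type cells made up 8.80% (4.48 to 15.2%) of metastasis cells and 3.80% (0.790 to 10.7%) of naive cells. The intervals overlap for each of these 3 subsets. The CD4 class rests on little: 12 of 14 CD4 cells in metastasis and 11 of 14 in naive had a single Cd4 UMI. After thinning every cell to 1000 UMIs, CD8 cells were 24.8% and 24.1% and CD4 cells 7.20% and 11.4%.

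**Figure D1:**
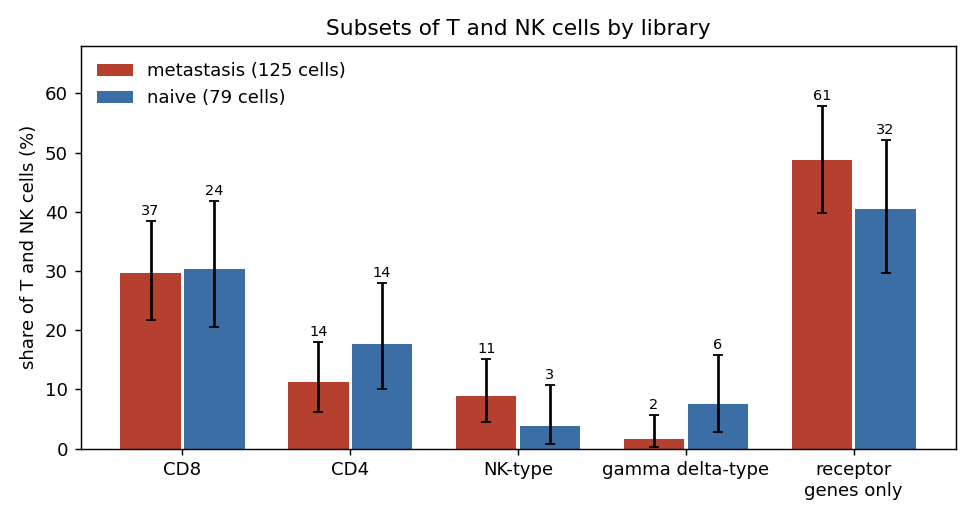
Share of T and NK cells (%, y axis) in each subset (x axis) for metastasis (red, 125 cells) and naive (blue, 79 cells); error bars are exact 95% binomial intervals and numbers are cells. The CD8 shares are 29.6% and 30.4%, and the largest class in both libraries is the one called receptor genes only.

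The subsets can be read against their genes. Ncr1, which encodes the NK receptor NKp46 and is one of the genes that set the NK-type class, had 22 UMIs in 9 of the 11 NK-type cells of metastasis and 0 in its CD8 and CD4 cells. Ltb, Il7r and Cxcr6, which the subset rule did not use, were at 0 in the NK-type cells of both libraries. Ltb had 60 UMIs in 23 CD8 cells and 20 UMIs in 8 CD4 cells of metastasis. Ccl5, a chemokine of killer cells, had 427 UMIs over the 11 NK-type cells of metastasis, 505 UMIs in 26 CD8 cells and 60 UMIs in 5 CD4 cells.

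Receptor segments were sparse in this 3' assay. The beta constant genes Trbc1 and Trbc2 were both seen in 40 cells of metastasis, Trbc2 alone in 58 and Trbc1 alone in 9. A variable segment of any chain was seen in 27 cells of metastasis (31 UMIs) and 16 of naive (19 UMIs). The most frequent was Trgv2, a gamma chain segment, in 6 cells of each library. No alpha or beta variable segment was seen in more than 3 cells of a library, so clonal expansion was not detectable at this depth. Traj18, the joining segment of invariant NKT cells, had 3 UMIs in 3 naive cells and 0 in metastasis, where a count of 0 is set to the floor of 3 UMIs.

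Between libraries, 4001 genes had at least 20 UMIs over both sets of cells, and their median log2 ratio of metastasis over naive was 0.06. Of these 380 were at least 2-fold higher in metastasis (9.5%) and 213 at least 2-fold lower (5.32%). The cells of metastasis held more UMIs, so genes with few UMIs reached the limit more readily when higher there. The same filter lies behind every list count and median between libraries below. Without the cells holding myelin genes, 3200 genes could be compared, 209 were higher (6.53%) and 163 lower (5.09%). The genes that define the lineage moved little. Of 24 measured genes of the receptor and its signalling, 0 passed 2-fold in either direction and the median was 0.02, and of 25 pan-leukocyte genes 0 passed, with a median of 0.03. Without the cells holding myelin genes, 3 of 23 receptor and signalling genes passed 2-fold upwards and their median was 0.17.

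**Figure D2:**
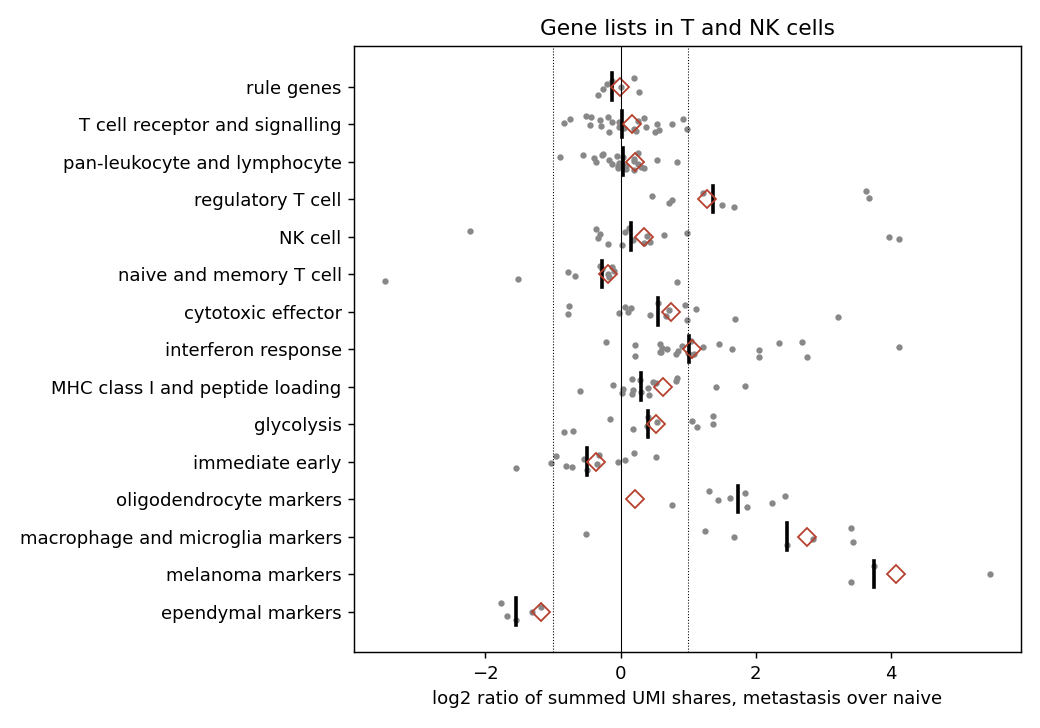
Log2 ratio of summed UMI shares, metastasis over naive (x axis), for each gene with at least 20 UMIs (grey points) of 15 lists (y axis); black bars are list medians, red diamonds the medians without cells holding myelin genes, and dotted lines mark 2-fold. The interferon list has its median at 1.02 and 1.05 without those cells, while the oligodendrocyte list falls from 1.73 to 0.21.

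Interferon response genes were higher in T and NK cells of metastasis. Of 38 genes in the list 24 were measured. Of these 12 were at least 2-fold higher (against 9.5% of all genes) and 0 at least 2-fold lower. The median log2 ratio was 1.02 against 0.06 over all genes. Some of the 12 reached the limit of 20 UMIs mostly through metastasis, where they are high. Slfn5 did so with 20 UMIs over both libraries (log2 ratio 2.34, 0.28 to 5.49). Ifi27l2a, a small interferon-induced protein, had 454 UMIs in 78 of 125 cells of metastasis and 128 UMIs in 26 of 79 cells of naive, a log2 ratio of 0.997 (0.71 to 1.29). The 2 sets of cells overlapped, since naive cells reached 36 UMIs and metastasis cells 41. Among the cells with at least 2000 UMIs, 40 and 23, the direction turned, with a log2 ratio of -0.19, and the list median was 0.53. These deeper cells included all 16 cells of metastasis and the 2 of naive that held myelin genes. Ratios among the deeper cells are given without intervals here and below.

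Zbp1, a sensor of Z-form nucleic acids, had 44 UMIs in 37 cells of metastasis and 6 UMIs in 6 cells of naive (log2 ratio 2.04, 0.81 to 3.57). Isg15, a ubiquitin-like protein, had 36 UMIs in 19 cells of metastasis and 0 in naive, at least 6.75-fold higher against a floor of 3 UMIs over the naive cells. On the log2 scale this bound is 2.76, and it was 2.05 among cells with at least 2000 UMIs. The exact interval for the Isg15 ratio began lower, at 2.38. Iigp1, an immunity-related GTPase, had 31 UMIs in 18 cells and 1 UMI in 1 cell (log2 ratio 4.12, 1.54 to 9.47). Socs1, an inhibitor of JAK kinases, had 23 UMIs in 21 cells and 2 UMIs in 2 cells (log2 ratio 2.69, 0.68 to 5.82). These 4 genes were seen in few or no naive cells. Isg15 was spread over the subsets of metastasis: 3 CD8 cells, 3 CD4 cells, 2 NK-type cells, 1 gamma delta-type cell and 10 with receptor genes only.

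Free RNA carried interferon genes too, and more of them in metastasis. In barcodes with 10 to 100 UMIs, which stand for empty droplets, the summed level of the list was 2005 CPM (UMIs scaled to the same total in each set of cells) in metastasis and 409 CPM in naive, against 6043 and 3248 CPM in T and NK cells. Isg15 was at 144 CPM in free RNA of metastasis and 128 CPM in the cells. Zbp1 was at 42.8 CPM in free RNA and 157 CPM in the cells, and 21 of the 24 measured genes were higher in the cells than in free RNA in the library where each was higher. By marker genes of other cells, free RNA made up an estimated fraction of 0.112 of the UMIs of the cells in metastasis and 0.0893 in naive. These are medians over the oligodendrocyte, melanoma and choroid plexus lists, which differed widely. The lists gave 1.18, 0.0859 and 0.112 in metastasis and 0.338, 0.0579 and 0.0893 in naive. With the median fraction subtracted the log2 bound for Isg15 was 2.56. With free RNA subtracted, the list median was 0.97, and without the cells with at least 2 C1q UMIs it was 1.03.

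At matched depth all 24 measured genes of the list were rarer in oligodendrocyte barcodes of metastasis, used here as cells in which signal can come from free RNA, and 21 of 24 were in naive, with Xaf1, Isg15 and Iigp1 the exceptions. With each cell thinned to 1000 UMIs, Ifi27l2a had a UMI in 51.2% of T and NK cells of metastasis and 27.8% of naive, and in 4.80% and 1.40% of oligodendrocyte barcodes. Zbp1 was seen in 19.2% and 6.33% of T and NK cells and in 0.417% and 0.0165% of oligodendrocyte barcodes. Unthinned shares for Zbp1 were 29.6% and 7.59%. Median depths were 1619 and 1576 UMIs in T and NK cells and 2822 and 3061 in oligodendrocyte barcodes. Over those genes of the 24 that could be measured in each, the median log2 ratio was 2.24 in oligodendrocyte barcodes, 1.81 in microglia barcodes and 0.46 in macrophage barcodes, against 1.02 in T and NK cells; whether these differences are particular to any cell type was not tested.

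**Figure D3:**
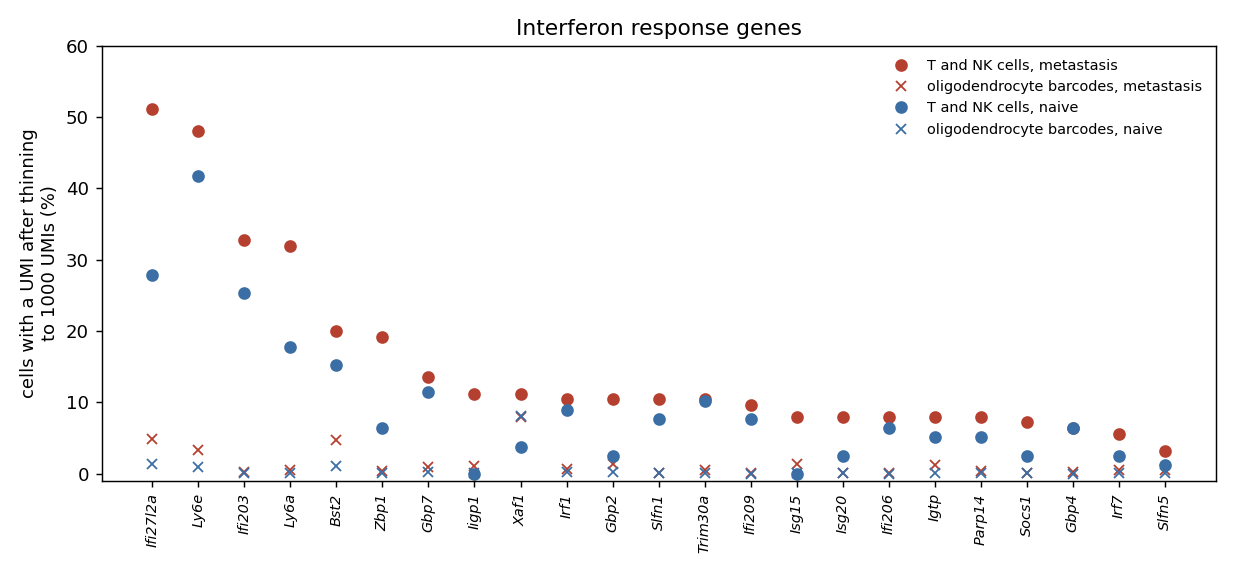
Share of cells with a UMI after thinning to 1000 UMIs (%, y axis) for measured interferon response genes (x axis); circles are T and NK cells, crosses oligodendrocyte barcodes, red metastasis and blue naive. Ifi27l2a reaches 51.2% in metastasis and 27.8% in naive T and NK cells, and Xaf1 is at 7.98% and 8.07% in oligodendrocyte barcodes against 11.2% and 3.80% in T and NK cells.

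The stretches upstream of 4 of these genes are shown because an ISRE lies near their start sites. They are the 4 with the most UMIs among the 5 interferon genes at least 2-fold higher that held a match, from RefSeq on GRCm38.p6, as 250 bases ending at the start site on the strand of the gene. Capitals mark matches of GAAA, 2 bases of any kind (NN) and GAAA again, on either strand, which can overlap each other.
Igtp, chr11:58199306-58199555, plus strand: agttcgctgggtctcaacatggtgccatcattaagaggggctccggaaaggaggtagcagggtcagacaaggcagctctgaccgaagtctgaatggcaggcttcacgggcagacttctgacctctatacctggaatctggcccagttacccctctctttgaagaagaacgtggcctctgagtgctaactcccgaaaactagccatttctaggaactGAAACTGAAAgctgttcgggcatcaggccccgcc
Isg15, chr4:156200819-156201068, minus strand: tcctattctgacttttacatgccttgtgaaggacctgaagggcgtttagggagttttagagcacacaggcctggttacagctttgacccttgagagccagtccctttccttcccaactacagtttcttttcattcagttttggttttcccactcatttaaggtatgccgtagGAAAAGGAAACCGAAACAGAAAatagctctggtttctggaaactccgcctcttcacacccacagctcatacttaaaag
Gbp2, chr3:142620413-142620662, plus strand: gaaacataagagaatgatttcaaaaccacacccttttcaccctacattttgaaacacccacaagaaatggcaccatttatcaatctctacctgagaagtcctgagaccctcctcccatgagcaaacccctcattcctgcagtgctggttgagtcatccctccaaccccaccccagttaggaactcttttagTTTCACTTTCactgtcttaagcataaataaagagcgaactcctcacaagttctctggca
Socs1, chr16:10785537-10785786, minus strand: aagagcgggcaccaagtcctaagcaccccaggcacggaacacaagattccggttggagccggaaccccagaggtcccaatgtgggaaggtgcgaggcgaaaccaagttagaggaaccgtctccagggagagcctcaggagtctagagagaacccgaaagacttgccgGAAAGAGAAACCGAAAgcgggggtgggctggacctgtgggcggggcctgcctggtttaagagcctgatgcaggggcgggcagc
Among all 32851 RefSeq windows of this length, 978 (2.98%) held a match. Of the 38 listed genes, 27 had a window, and 18 of those held a match. A match was found in 5 of the 8 windows of genes at least 2-fold higher and in 4 of the 8 windows of measured genes that were not. A match is a description of letters and not of binding.

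Igtp and Gbp2, interferon-induced GTPases, had log2 ratios of 1.21 (0.07 to 2.54) and 1.66 (0.26 to 3.39).

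Interferons are known to induce MHC class I presentation. Of 17 measured genes of class I and peptide loading, 2 were at least 2-fold higher (against 9.5% of all genes), 0 lower, and the median was 0.31. Without the cells holding myelin genes 4 of 17 were higher (against 6.53% of all genes), with a median of 0.63. Tap1 and Tap2, the peptide transporter, were those 2, with 38 and 8 UMIs for Tap1 (log2 ratio 1.42, 0.30 to 2.73) and 32 and 5 UMIs for Tap2 (1.85, 0.48 to 3.57). B2m, the shared light chain, was seen in 122 of 125 and 73 of 79 cells, with a log2 ratio of 0.43 (0.24 to 0.62), 0.63 without the cells holding myelin genes and 0.23 among cells with at least 2000 UMIs. B2m was at 2763 CPM in the cells and 997 CPM in free RNA of metastasis.

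Genes of regulatory T cells were higher in metastasis. Of 11 listed genes 8 were measured, 5 were at least 2-fold higher (against 9.5% of all genes) and 0 lower, and the median was 1.36 (1.28 without the cells holding myelin genes). Tnfrsf4, which encodes the costimulatory receptor OX40, had 68 UMIs in 14 cells of metastasis, from 1 to 15 UMIs in a cell, and 3 UMIs in 2 cells of naive (log2 ratio 3.67, 2.06 to 5.99). Ikzf2, encoding the factor Helios, had 86 UMIs in 30 cells and 17 UMIs in 12 cells (1.51, 0.75 to 2.35). Foxp3, which defines the lineage, was too sparse for the comparison, with 11 UMIs in 8 cells and 1 UMI in 1 cell.

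These genes met in the same cells. Of the 14 cells of metastasis with Tnfrsf4, 13 had Ctla4, 10 Ikzf2, 10 Tnfrsf18 and 5 Foxp3, against 12, 20, 26 and 3 of the other 111 cells. None of the 14 had Gzma or Il17a. These counts come from unthinned cells, so a difference in depth between the sets is not removed. The same holds for the cells with Irf8, Il17a and Ccr7 below. By subset, 4 were CD4 cells, 1 a CD8 cell and 9 had receptor genes only. Tnfrsf4 was at 3.89 and 0 CPM in free RNA, and its log2 ratio without the cells holding myelin genes was 4.05. Ctla4 itself, a checkpoint receptor, had 64 UMIs in 25 cells and 22 UMIs in 11 cells, a log2 ratio of 0.71 (-0.01 to 1.48). Without the cells holding myelin genes it was 1.07 (0.35 to 1.84). Among cells with at least 2000 UMIs it was 2.31, where no naive cell had more than 1 Ctla4 UMI.

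**Figure D4:**
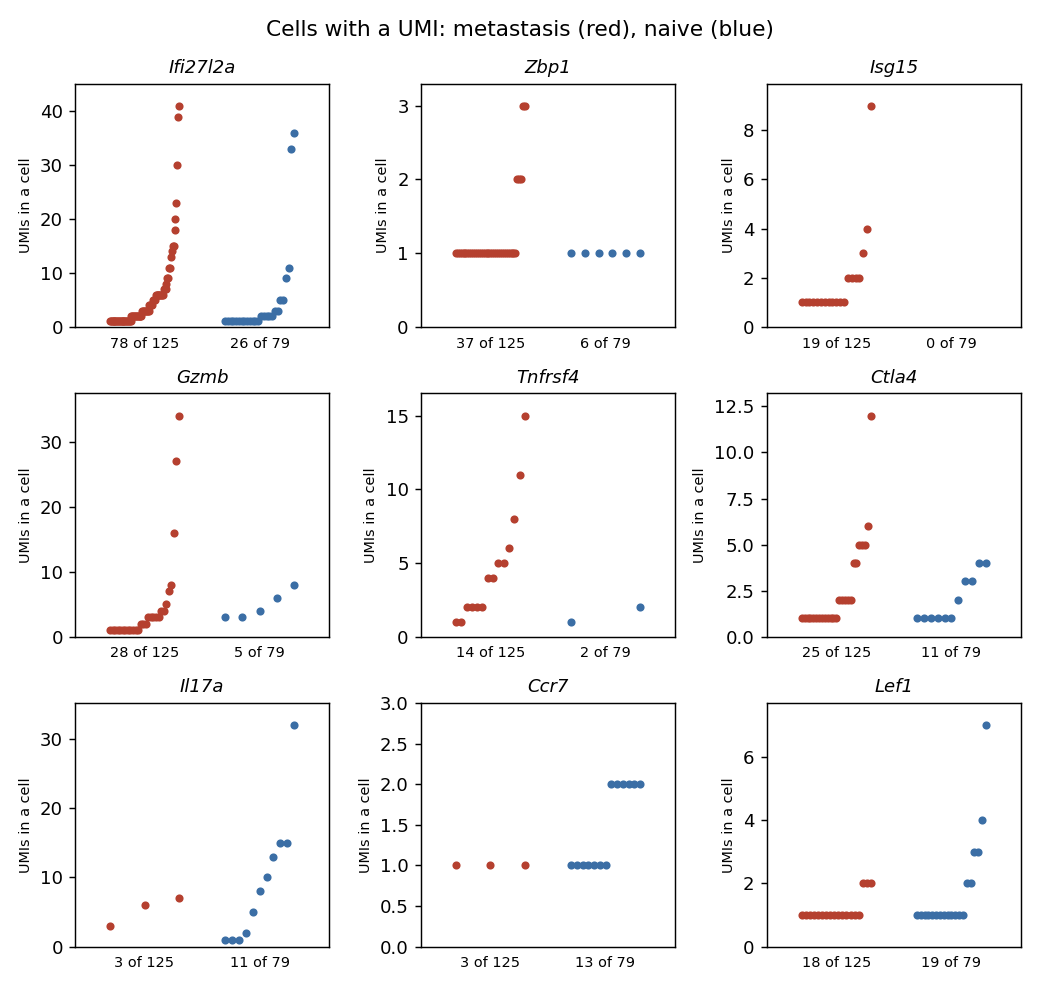
UMIs in each cell that has at least 1 (y axis) for 9 genes, metastasis in red and naive in blue, cells sorted by value; labels give the cells with a UMI of all cells. Tnfrsf4 is in 14 of 125 and 2 of 79 cells, and Il17a in 3 of 125 and 11 of 79.

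Of 21 listed cytotoxic genes 15 were measured, 3 were at least 2-fold higher (against 9.5% of all genes), 0 lower, and the median was 0.56, moving between 0.25 and 0.75 over the settings tried. One of the 3, Gzmc, encoding granzyme C, had 33 UMIs in 5 cells of metastasis, 24 of them in 1 cell, and 2 UMIs in 2 cells of naive. Gzmb, encoding granzyme B, had 138 UMIs in 28 of 125 cells and 24 UMIs in 5 of 79 cells (log2 ratio 1.69, 1.06 to 2.38). Of these UMIs 96 came from 9 CD8 cells, and 1 cell alone had 34, a cell that also held 22 UMIs of the myelin genes. Without the cells holding myelin genes the log2 ratio was 1.38 (0.71 to 2.09), with 85 and 24 UMIs. Weighting each cell equally gave 0.75, and leaving out cells with at least 2 C1q UMIs gave 0.55. Cells with at least 2000 UMIs gave 2.77, where 1 naive cell held all the naive UMIs of Gzmb, 8 of them.

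Gzma, encoding granzyme A, had 360 UMIs in 23 cells and 102 UMIs in 7 cells (log2 ratio 0.99, 0.67 to 1.32). The interval treats these UMIs as independent, although a cell of metastasis held up to 58 of them. All 11 NK-type cells of metastasis had Gzma, with 223 UMIs, but Gzma is among the genes that set that class. Among cells with at least 2000 UMIs the Gzma ratio was 4.39, and without the cells holding myelin genes 1.37. Ccl4, a chemokine, had 304 UMIs in 37 cells and 79 UMIs in 16 cells (1.11, 0.75 to 1.49), and free RNA of metastasis held 339 CPM of it against 1085 CPM in the cells. Perforin (Prf1) had 41 UMIs in 19 cells and 17 UMIs in 7 cells, with an interval of -0.41 to 1.35. Ifng, encoding interferon gamma, had 53 UMIs in 18 cells of metastasis and 51 UMIs in 22 cells of naive (-0.77, -1.36 to -0.19), and a ratio of -0.05 among cells with at least 2000 UMIs.

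Irf8, an interferon regulatory factor, had 79 UMIs in 31 cells of metastasis and 7 UMIs in 5 cells of naive (log2 ratio 2.67, 1.56 to 4.03), and 282 CPM in the cells against 38.9 CPM in free RNA. Among cells with at least 2000 UMIs its ratio was 4.45. Of the 31 cells 20 had Gzmb and 10 had Lag3, against 8 and 2 of the other 94 cells. By subset 10 were CD8 cells and 8 NK-type cells. Of 22 listed checkpoint and exhaustion genes 9 were measured, and the median was 0.28. At least 2-fold higher were 3 (against 9.5% of all genes), and 1 was lower (against 5.32%). Without the cells holding myelin genes 1 of 6 was higher (against 6.53% of all genes) and 2 lower (against 5.09%), and the median was -0.35. Rgs16, a regulator of G protein signalling, had 24 UMIs in 12 cells and 1 UMI in 1 cell (log2 ratio 3.76, 1.14 to 9.12), and a ratio of 1.11 among cells with at least 2000 UMIs. Pdcd1, encoding PD-1, had 18 UMIs in 9 cells and 4 UMIs in 2 cells, with an interval of -0.26 to 3.36. Tigit was at 0 in the T and NK cells of both libraries.

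Il17a, which encodes the cytokine IL-17A, had the lowest log2 ratio among genes with at least 50 UMIs, when 10 CPM were added to both sides and selecting, mitochondrial, ribosomal and predicted genes were left out. It had 103 UMIs in 11 of 79 naive cells and 16 UMIs in 3 of 125 cells of metastasis (log2 ratio -3.52, -4.38 to -2.75). In naive the cells held from 1 to 32 UMIs, with a median of 8, and 5 were CD4 cells, 2 of gamma delta type and 4 with receptor genes only. Among these 11 cells 9 had Il7r, 8 Icos, 8 Cxcr6 and 7 Rora, against 28, 12, 22 and 12 of the other 68. The interval treats UMIs as independent, while 11 cells hold them. Only 1 cell of naive and 0 of metastasis with at least 2000 UMIs had Il17a, so no ratio could be formed there. Without the cells with at least 2 C1q UMIs the ratio was -5.49, and without the cells holding myelin genes it was -3.13.

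Of 11 measured genes of naive and memory T cells, 2 were at least 2-fold lower (against 5.32% of all genes) and 0 higher, with a median of -0.28. Without the cells holding myelin genes 2 were lower (against 5.09% of all genes), 1 was higher (against 6.53%) and the median was -0.19. Ccr7, the receptor for lymph node homing, had 3 UMIs in 3 cells of metastasis and 19 UMIs in 13 cells of naive (log2 ratio -3.49, -5.89 to -1.73). Without the cells holding myelin genes its ratio was -2.95 (-5.36 to -1.16). Lef1, a factor of naive T cells, had 21 UMIs in 18 cells and 34 UMIs in 19 cells (-1.52, -2.38 to -0.70), and a ratio of -3.26 among cells with at least 2000 UMIs. Tcf7, often paired with it, had 46 and 29 UMIs and an interval of -0.87 to 0.56. Of the 13 naive cells with Ccr7, 8 had Lef1 and 1 had Ccl5, against 11 and 37 of the other 66.

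Cxcr6, a receptor of tissue-resident T cells, had 45 UMIs in 25 cells of metastasis and 57 UMIs in 30 cells of naive (log2 ratio -1.17, -1.77 to -0.58). The Cxcr6 ratio was -0.94 (-1.57 to -0.33) without the cells holding myelin genes and -0.36 among cells with at least 2000 UMIs. Itga1, encoding a collagen-binding integrin chain, had 8 UMIs in 5 cells and 19 UMIs in 12 cells (-2.08, -3.48 to -0.82). Its level in metastasis, 28.6 CPM, was near that of free RNA, 27.3 CPM. Cd7, a lymphocyte surface protein, had 16 UMIs in 14 cells and 42 UMIs in 19 cells (-2.22, -3.15 to -1.36). Cd7 belongs to the NK cell list, where it was the 1 gene lower (against 5.32% of all genes). That list had 16 measured genes, 2 higher (against 9.5%) and a median of 0.16. The 2 higher were Klra4 (4.12, 1.54 to 9.47) and Klra8 (3.98, 1.38 to 9.33), which have near-identical relatives. Without the cells holding myelin genes the ratios were -1.70 for Itga1 and -1.90 for Cd7. The list of tissue residency had 14 measured genes, 1 higher (against 9.5% of all genes), 2 lower (against 5.32%) and a median of -0.08. Without the cells holding myelin genes 1 was higher (against 6.53%), 1 lower (against 5.09%) and the median was 0.13.

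Of 13 measured immediate early genes 2 were at least 2-fold lower (against 5.32% of all genes) and 0 higher, with a median of -0.49. Junb had 305 UMIs in 93 cells and 299 UMIs in 70 cells (log2 ratio -0.80, -1.04 to -0.57). Without the cells holding myelin genes the Junb ratio was -0.59 (-0.84 to -0.35), and the list median was -0.36. The heat shock gene Hspa1b had 49 UMIs in 20 cells and 118 UMIs in 28 cells (-2.10, -2.61 to -1.61), at 175 CPM against 117 CPM in free RNA of metastasis. Over the immediate early list the median was -0.93 in macrophage barcodes, -0.23 in microglia barcodes and 0.75 in oligodendrocyte barcodes.

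The proliferation list could not be read as cycling. By the rule of at least 3 UMIs, 56 cells of metastasis (44.8%) and 18 of naive (22.8%) counted as cycling. After thinning the shares were 21.6% and 10.1%, but oligodendrocyte barcodes reached 55.0% and 49.9%, where Stmn1 alone had a UMI in 90.5% and 90.3% of barcodes after thinning. The thinned shares of T and NK cells thus lie below this background. Stmn1 had a log2 ratio of 0.77 with all cells and 0.21 without those holding myelin genes. Without Stmn1 and Hmgb2, a choice made after these values were seen, 9.60% (12 cells) and 6.33% (5 cells) passed after thinning, against 0.330% and 0.0659% of oligodendrocyte barcodes.

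Several of the largest ratios belonged to genes of other cells. Dct, a melanocyte enzyme, had 79 UMIs in 59 cells of metastasis and 1 UMI in 1 cell of naive, at 282 CPM in the cells against 3040 CPM in free RNA. C1qb had 58 and 3 UMIs, at 207 CPM against 1437 CPM. Npy, Sparcl1, Mt3, Nnat and Pltp, among the 8 lowest, were at 64.2 to 278 CPM in metastasis and each lay below its level in free RNA of that library. Cldn11, a myelin gene, had 201 and 21 UMIs. Their part in the other results was not tested beyond the settings named.

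Against the other 13620 barcodes of metastasis, a description because the cells were chosen on their own counts, 2640 genes had at least 20 UMIs in T and NK cells and 582 were at least 2-fold higher (22%). Leading genes outside the selecting ones were Gzma, Trbc1, Ccl5, Ltb, Ptprcap, Gzmb, Xcl1, Cd8b1, Gimap3, AW112010, Cd2 and Icos. AW112010, an interferon-inducible transcript of lymphocytes and myeloid cells, had 783 UMIs in 102 cells of metastasis and 283 UMIs in 66 cells of naive. Gimap3 has near-identical relatives, as do the Klra and Ccl genes, so reads between copies may be split.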

How the data were processed

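The deposited matrices are raw UMI counts, which the authors made with STARsolo on GRCm38, per the submitters' processing notes; version and annotation are not given in the sources used here. Values were not normalized. Counts were summed over the T and NK cells of each library, scaled to counts per total UMIs (CPM), and compared as ratios with exact conditional binomial intervals; shares have exact Clopper-Pearson intervals, both at 95%. These cover counting error only, and the ratio intervals treat UMIs of the same cell as independent. Ratios were formed for genes with at least 20 UMIs over both libraries, and 0 was bounded by 3 UMIs over the group. Free RNA was taken from barcodes with 10 to 100 UMIs. The interval code was tested on simulated data. No doublets were removed: scrublet's automatic call marked 0 of 13745 barcodes in metastasis, so it had not worked.

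The members, lists and rules were chosen with earlier results of these data known. Genes named were drawn, in each list, from the 5 with the most UMIs in metastasis and those past a log2 ratio of 2. Outside the lists they were drawn from the 12 highest over other barcodes and the 8 highest and 8 lowest between libraries. Not every gene that met these limits is described. Among those left out above are Cx3cr1 (log2 ratio 2.34, 0.28 to 5.49) and Isg20 (2.04, 0.31 to 4.43). Tap1, Tap2, Igtp, Gbp2, Xaf1, Foxp3, Lef1, Ifng, Prf1, Pdcd1, Tigit, Lag3, Rora, Ncr1, Traj18 and Trgv2 were chosen after their values were seen. Tools were Python 3.11.15, numpy 2.4.6, scipy 1.17.1, pandas 2.3.3, scanpy 1.11.5 and matplotlib 3.10.9. Promoter sequences are from RefSeq. Some items are not reported here.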

Additional observations from a re-analysis of the deposited data

How the results depend on the processing

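With 1 library per group no library could be left out, and no paired analysis was possible because each group is 1 library. Among the summary results 111 of the values under alternatives were counted as the same and 19 as moved. List medians and the number of genes past 2-fold have no interval given here. At 2000 UMIs or more the share of T and NK cells was 0.388% in metastasis and 0.220% in naive, the cycling share in metastasis 90%, and the interferon median 0.53; thinning gave a cycling share of 21.6%, and leaving out cells with C1q UMIs a share of 0.706%. The interferon median was 0.87 with genes of at least 50 UMIs. Genes past 2-fold numbered 593, against 1420 with genes of at least 10 UMIs, 140 with at least 50, and 372 without cells holding myelin genes. The cytotoxic median of 0.56 was 0.46 with a limit of 500 UMIs, 0.75 at 2000 UMIs, 0.25 with selecting genes at 0.30% of UMIs, 0.44 and 0.30 with genes of at least 10 and 50 UMIs, 0.38 with cells weighted equally, 0.75 without cells holding myelin genes, 0.32 without C1q cells and 0.66 without the 6% of barcodes with the highest doublet score. Of single genes, 729 values stayed within their interval and 35 moved. Ifi27l2a turned from 0.997 to -0.19 at 2000 UMIs. Lifting the macrophage limit removed no barcode from the rule's reach, so it is no check. Settings without myelin-gene cells, without C1q cells, without the highest doublet scores, without the top cell of a gene and with free RNA from somewhat deeper barcodes were chosen after seeing the data; the causes were not tested. Removal of called doublets was not run because the call had not worked, and CD8 against CD4 was not run because 14 CD4 cells lie under the 50 required. Depth limits these values, with a median of 1619 and 1576 UMIs per cell.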
